A study of Mus musculus with 16 samples.

Results

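The 8 complement genes described here were chosen by name in the gene table of bone marrow derived macrophages (BMDMs): C3, Cfb and Cfp of the alternative pathway, C2 and C4b of the classical and lectin pathways, the soluble inhibitor Serping1, and the receptors C3ar1 and C5ar1. They are 8 of 22287 genes in the table. All 8 passed the filter on low counts, which left 12514 genes for testing.

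The study asked how the surface of the culture dish shapes mouse macrophages. Marrow of C57BL/6J mice, 8 weeks old and with no genetic alteration given in the labels, was cultured for 7 days with GM-CSF at 20 ng/ml (GM) or with M-CSF at 50 ng/ml (M), on dishes treated to promote adherence (TC) or untreated dishes (noTC). Cells then received vehicle, called steady state here, or lipopolysaccharide (LPS) at 100 ng/ml for 3 h. Each of the 8 combinations, named for example GM-TC or M-noTC-LPS, was sequenced in 2 biological replicates, giving 16 libraries. GM and M cultures also differed in the concentration of the growth factor and in seeding density, so a difference between them cannot be told apart from those.

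Complement is a cascade of proteases and binding proteins that marks microbes and damaged cells for uptake and releases small peptides that attract and activate leukocytes. The liver makes most of the plasma proteins, and macrophages make some of them locally. All pathways meet at C3, whose cleavage leaves one fragment bound to the target and frees the peptide C3a. Factor B (Cfb) joins the bound fragment to form the C3-cleaving enzyme of the alternative pathway, and properdin (Cfp) stabilises that enzyme. C2 and C4 form the corresponding enzyme of the classical and lectin pathways, and the C1 inhibitor (Serping1) blocks the proteases that start them. C3ar1 and C5ar1 are the receptors of myeloid cells for C3a and C5a.

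The promoters of C3 and of both receptors are shown because the RNA of these genes answered LPS in different ways in the data that follow. Each is the run of 250 bases before the annotated start, 5′ to 3′ on the strand of the gene, from RefSeq on GRCm38.p6. They lie at chr17:57228137-57228386, minus strand (C3), chr6:122856158-122856407, minus strand (C3ar1), and chr7:16259339-16259588, minus strand (C5ar1).
C3: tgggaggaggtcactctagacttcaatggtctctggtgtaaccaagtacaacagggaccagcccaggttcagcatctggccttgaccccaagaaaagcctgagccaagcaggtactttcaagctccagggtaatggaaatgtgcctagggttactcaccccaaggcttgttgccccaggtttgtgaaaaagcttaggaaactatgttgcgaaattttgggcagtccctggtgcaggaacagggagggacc
C3ar1: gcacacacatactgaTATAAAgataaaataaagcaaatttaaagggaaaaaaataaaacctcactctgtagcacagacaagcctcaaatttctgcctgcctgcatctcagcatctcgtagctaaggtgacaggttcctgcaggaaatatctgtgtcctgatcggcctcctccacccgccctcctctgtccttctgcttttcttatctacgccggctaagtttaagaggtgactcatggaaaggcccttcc
C5ar1: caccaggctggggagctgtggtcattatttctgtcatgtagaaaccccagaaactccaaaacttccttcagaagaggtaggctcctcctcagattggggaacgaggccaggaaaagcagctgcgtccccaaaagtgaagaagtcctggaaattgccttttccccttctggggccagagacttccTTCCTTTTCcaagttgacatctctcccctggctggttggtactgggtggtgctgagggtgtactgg

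Capitals mark matches to 4 motifs searched on both strands. These were NF-kB (GGANNTTCC), the interferon-stimulated response element (ISRE, GAAANNGAA), the gamma activated site (TTCNNNGAA) and the TATA box (TATAAA). C5ar1 held 1 ISRE match on the opposite strand, at bases 66 to 58 before the start, and C3ar1 held 1 TATA box, at bases 235 to 230. The promoter of C3 held none of the 4 in this window, nor did that of Cfp. Of 32536 RefSeq promoters of the same length, 3.59% held the NF-kB letters, 7.15% the ISRE, 7.04% the gamma activated site and 12.3% the TATA box. A match is a run of letters and no evidence of binding. The table matched 4 of the 8 genes, with no entry for Cfb, C2, C4b and Serping1.

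The libraries held 17527802 to 31458363 counts. The 8 macrophage markers listed for the check of cell type summed to 20500 to 47800 CPM (counts scaled to a common library total) in each library and none was at 0, while 5 hepatocyte markers summed to at most 0.0403 CPM. Markers of heart muscle, a tissue absent from these cultures by their labels, came to 21 to 58.5 CPM in sum in the 4 steady state libraries from TC dishes and to at most 0.814 CPM in the other 12. Levels are CPM scaled with TMM factors, and these factors ran from 1.109 to 1.392 at steady state and from 0.7776 to 0.8415 after LPS. Scaling by library size alone moved the median log2 change over the 12514 genes to between -0.83 and -0.53 in the 4 LPS comparisons, from between -0.051 and -0.0061 with TMM, so small LPS effects are given under both scalings.

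Of the 6 secreted proteins among the 8 genes, C3 had the most RNA per kb of exon after LPS, at 169 to 461 CPM per kb against 68.5 to 158 for Cfp. At steady state C3 exceeded Cfp in GM-TC (79.9 against 59.9 CPM per kb), and Cfp exceeded C3 in GM-noTC (72 against 61.1), M-TC (123 against 69.8) and M-noTC (131 against 55.2). At steady state C3 read 449 and 373 CPM for GM-TC, 311 and 317 for GM-noTC, 369 and 348 for M-TC, and 267 and 300 for M-noTC. After LPS it read 1020 and 1050 CPM for GM-TC-LPS, 813 and 930 for GM-noTC-LPS, 2300 and 2430 for M-TC-LPS, and 2100 and 2350 for M-noTC-LPS. All 8 LPS libraries lay above all 8 steady state libraries, and the 4 M libraries with LPS lay above the 4 GM ones. In the order of group means from M-TC-LPS down to M-noTC, the M-TC-LPS and M-noTC-LPS libraries were the neighbours that overlapped.

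Cfb had the widest range of the 8 genes among those with more than 30 counts in each library. At steady state the values were 14.8 and 13.6 CPM for GM-TC, 7.3 and 8.17 for GM-noTC, 1.6 and 2.99 for M-TC, and 2.63 and 2.81 for M-noTC. After LPS they were 227 and 259 CPM for GM-TC-LPS, 180 and 172 for GM-noTC-LPS, 137 and 143 for M-TC-LPS, and 105 and 101 for M-noTC-LPS. GM libraries exceeded M libraries in each state, and the M-TC and M-noTC groups at steady state overlapped. Cfb and C2 are neighbours on chromosome 17 and share bases with the read-through gene model Gm20547, which held 12 counts over all libraries, so the split of shared reads between them rests on the estimates of the authors.

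Cfp varied least. In GM cells the replicates gave 95.3 and 112 CPM for GM-TC, 125 and 125 for GM-noTC, 116 and 122 for GM-TC-LPS, and 139 and 134 for GM-noTC-LPS. In M cells they gave 210 and 217 CPM for M-TC, 221 and 233 for M-noTC, 277 and 272 for M-TC-LPS, and 276 and 253 for M-noTC-LPS. Every M library exceeded every GM library. From the lowest to the highest library the level differed 2.9-fold, against 162-fold for Cfb.

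C3ar1 also separated the growth factors without overlap. GM libraries held 356 and 359 CPM for GM-TC, 363 and 374 for GM-noTC, 240 and 239 for GM-TC-LPS, and 267 and 299 for GM-noTC-LPS. M libraries held 817 and 809 CPM for M-TC, 756 and 798 for M-noTC, 1020 and 1020 for M-TC-LPS, and 1080 and 1050 for M-noTC-LPS. The LPS libraries were the lowest of the GM cultures and, with TMM, the highest of the M cultures. With library size alone C3ar1 read 795 to 909 CPM in the M libraries with LPS, below the 1050 to 1130 at steady state.

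C5ar1 was the scarcer receptor in GM cells at steady state, at 13.5 and 21.2 CPM per kb in GM-TC and GM-noTC against 83.2 and 85.7 for C3ar1. Its levels at steady state were 35.5 and 33.7 CPM for GM-TC, 53.6 and 55.4 for GM-noTC, 331 and 324 for M-TC, and 428 and 445 for M-noTC. After LPS they were 378 and 366 CPM for GM-TC-LPS, 391 and 419 for GM-noTC-LPS, 1230 and 1180 for M-TC-LPS, and 1160 and 1160 for M-noTC-LPS. With TMM the C5ar1 levels of GM libraries after LPS lay between those of M-TC and M-noTC at steady state, and no neighbouring groups in the order overlapped. With library size alone the GM libraries after LPS, at 293 to 330 CPM of C5ar1, lay below both M-TC (450 and 460) and M-noTC (593 and 610).

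**Figure D1:**
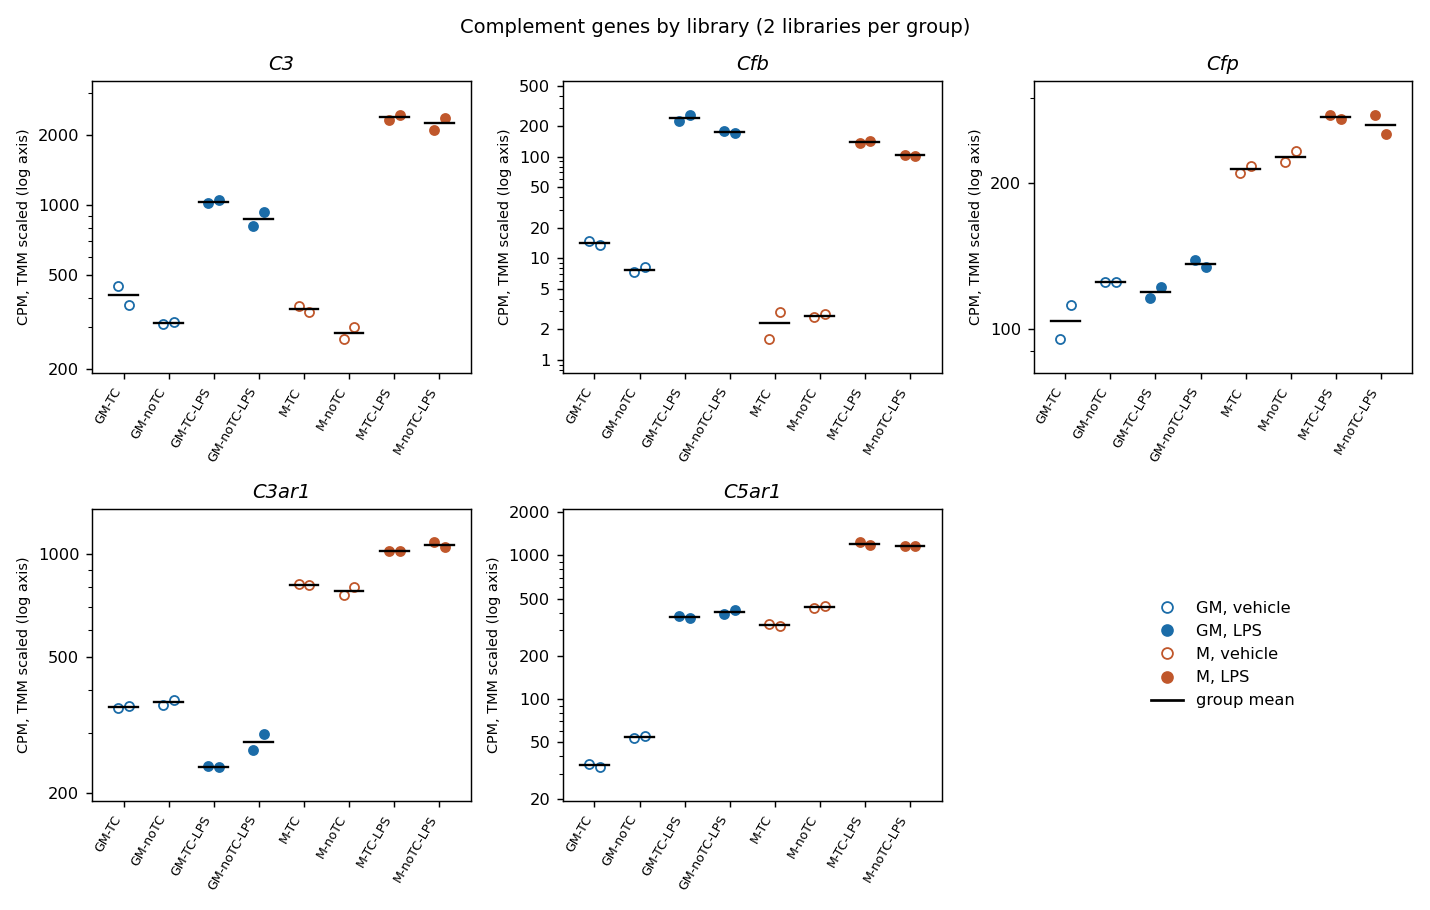
Levels of the 5 abundant complement genes in each of the 16 libraries, in TMM-scaled CPM on log axes, with 2 points per group (open for vehicle, filled for LPS, blue for GM, orange for M) and a bar at the group mean. After LPS, C3 reached 2100 to 2430 CPM in M cells and 813 to 1050 in GM cells, while Cfb was higher in GM cells; C3ar1 was lowest in GM cells with LPS, at 239 to 299 CPM.

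C2, C4b and Serping1 were scarce, with 1 to 26, 2 to 25 and 2 to 52 counts per library. A floor of 3 counts corresponded to 0.0697 to 0.174 scaled CPM. These floors and the exact intervals of count ratios cover counting error only, while the intervals from edgeR also hold the spread between libraries. In GM cells C2 had 5 and 10 counts for GM-TC, 10 and 5 for GM-noTC, 21 and 26 for GM-TC-LPS, and 19 and 24 for GM-noTC-LPS. In M cells it had 1 and 2 counts for M-TC, 5 and 6 for M-noTC, 12 and 5 for M-TC-LPS, and 7 and 15 for M-noTC-LPS. The LPS libraries of GM cells held the most, and those of M-TC at steady state lay under the floor. C2 also shares bases with Zbtb12 on the opposite strand, and no source states that strand was used in counting. C4b had group means between 0.185 and 0.458 CPM, and its libraries overlapped in 6 of the 7 steps of their order. The near-identical copy C4a was not analysed here, so reads of the pair could have been assigned to C4b.

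Serping1 was highest in GM-TC-LPS, with 52 counts in replicate 1 and 25 in replicate 2, or 2.69 and 1.16 CPM. The other GM groups held 15 and 11 counts for GM-TC, 5 and 5 for GM-noTC, and 12 and 10 for GM-noTC-LPS. M cells held 14 and 6 counts for M-TC, 2 and 5 for M-noTC, 7 and 7 for M-TC-LPS, and 5 and 12 for M-noTC-LPS. Serping1 is also made by fibroblasts, and the 8 stromal markers summed to 1.45 to 6.56 CPM at steady state and 22.7 to 51.6 after LPS, the latter mostly from Pdgfrb, which reached 41.2 CPM. The other 6 apart from Pdgfra (Dcn, Col1a1, Col1a2, Col3a1, Col5a2 and Lum) summed to 15.9 CPM in GM-TC-LPS replicate 1, the library with the most Serping1, and to 1.11 to 4.55 in the other 15. This subset was formed after its values were seen, and its part in the Serping1 level was not tested.

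**Figure D2:**
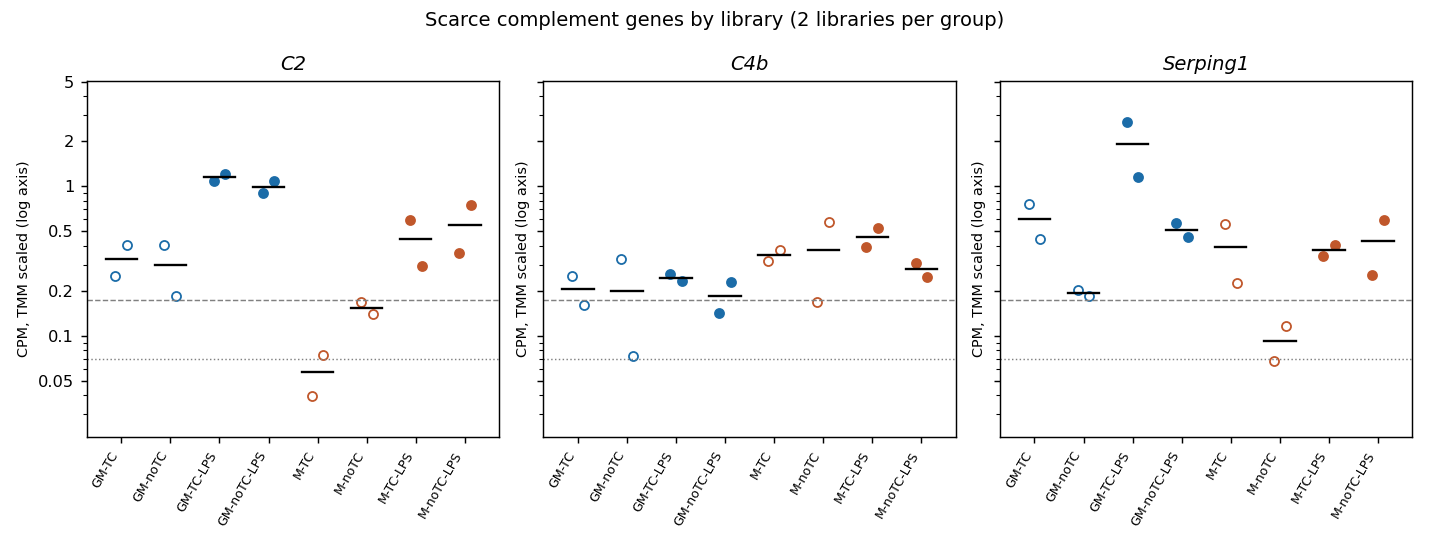
Levels of C2, C4b and Serping1 by library in TMM-scaled CPM on a shared log axis, with 2 points per group (open for vehicle, filled for LPS, blue for GM, orange for M) and a bar at the group mean. The grey lines give the lowest (0.0697) and highest (0.174) level that 3 counts amount to in a library, and several libraries of each gene lie close to them.

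The first question was how each culture answered LPS. At an adjusted p under 0.05 by edgeR, 7 of the 8 genes were called in GM-TC cells and 5 on noTC dishes, and M cells had 6 calls on TC and 7 on noTC dishes. LPS moved most of the transcriptome, with 67.0%, 67.7%, 74.0% and 72.3% of all tested genes called in these comparisons, so the counts alone are not particular to complement. The median log2 fold change of the 8 genes was 1.51, 1.42, 1.13 and 1.63, against -0.0508, -0.0339, -0.00835 and -0.00613 over all tested genes. The 8 were chosen with earlier results of these data known, so their medians do not stand for complement as a whole. Over the 21 other tested genes of the wider complement list described below, the medians were 0.102, 0.0564, 0.186 and 0.138. In bulk RNA, fewer cells of a kind and less RNA per cell cannot be told apart. The 3 endothelial markers, none at 0 in any library, summed to 12.2 to 14.7 CPM at steady state and 44 to 117 after LPS, mostly from Kdr. The 6 dendritic cell markers summed to 47.5 to 55.8 CPM in GM cells at steady state and 84.6 to 104 after LPS. The part of either in the LPS differences was not tested.

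Among the alternative pathway genes, Cfb rose most, 17.2-fold in GM-TC (log2 4.10, 95% interval 3.90 to 4.30, adjusted p = 7e-20) and 22.7-fold in GM-noTC (log2 4.51, 4.29 to 4.72, adjusted p = 4.2e-20). In M cells it rose 60.4-fold on TC (log2 5.92, 5.65 to 6.18, adjusted p = 6e-21) and 37.6-fold on noTC dishes (log2 5.23, 4.99 to 5.48, adjusted p = 1.7e-20). The larger fold in M cells went with a lower start, since Cfb ended lower in M than in GM cells. C3 rose 2.51-fold in GM-TC and 2.77-fold in GM-noTC (log2 1.33 and 1.47, SE 0.079 in both, adjusted p = 1.2e-12 and 2.1e-13). With library size alone the Cfb values in M cells were 5.09 and 4.51. In M cells C3 rose 6.6-fold on TC and 7.84-fold on noTC dishes (log2 2.72 and 2.97, SE 0.082 and 0.083, adjusted p = 3.1e-18 and 8.4e-19), or by 1.89 and 2.24 with library size alone.

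Cfp changed little, and the direction depended on scaling. With TMM it differed by 0.19, 0.13, 0.36 and 0.22 on the log2 scale in the 2 GM cultures (TC, then noTC) and the 2 M cultures (adjusted p = 0.013, 0.088, 2.5e-05 and 0.0037 by edgeR), but with library size alone by -0.285, -0.381, -0.468 and -0.508. The GM-TC value fell to 0.0855 (adjusted p = 0.22) without GM-TC replicate 1 and to 0.158 (adjusted p = 0.11) without GM-TC-LPS replicate 2. The M-noTC value fell to 0.154 (adjusted p = 0.078) without M-noTC-LPS replicate 1.

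The receptors behaved differently from each other. C5ar1 rose in all 4 cultures, 10.8-fold in GM-TC (log2 3.43, SE 0.058, adjusted p = 1.6e-22), 7.43-fold in GM-noTC (log2 2.89, SE 0.055, adjusted p = 1.3e-21), 3.68-fold in M-TC (log2 1.88, SE 0.051, adjusted p = 4e-19) and 2.67-fold in M-noTC (log2 1.42, SE 0.050, adjusted p = 5.5e-17). With library size alone the C5ar1 values in M-TC and M-noTC were 1.05 and 0.689. C3ar1 fell 1.5-fold in GM-TC (log2 -0.58, 95% interval -0.69 to -0.47, adjusted p = 1.8e-09) and 1.3-fold in GM-noTC (log2 -0.38, -0.49 to -0.27, adjusted p = 1.2e-06), also with library size alone. In M cells C3ar1 was higher after LPS with TMM, by 0.33 on TC and 0.45 on noTC dishes (SE 0.051 in both, adjusted p = 5.4e-06 and 4.5e-08), and lower with library size alone, by -0.501 and -0.271.

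For the scarce genes, C2 was called in all 4 cultures, in the same order at 1.77, 1.76, 2.85 and 1.84 on the log2 scale (edgeR, adjusted p = 0.0046, 0.005, 0.0038 and 0.01). In M-TC cells the summed counts were 17 after LPS and 3 before, a ratio of 7.82 with an exact counting interval of 2.26 to 41.7. DESeq2 on the 4 libraries of each comparison gave C2 an adjusted p of 0.05, 0.05, 0.07 and 0.1, none of them under the threshold. The call was also lost without GM-noTC replicate 2 (1.3, adjusted p = 0.075), M-TC-LPS replicate 1 (2.23, adjusted p = 0.075), M-noTC replicate 2 (1.7, adjusted p = 0.063) or M-noTC-LPS replicate 2 (1.22, adjusted p = 0.19), and in M-noTC with library size alone (1.13, adjusted p = 0.091).

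Serping1 was called in GM-TC, at 1.69 on the log2 scale (95% interval 0.67 to 2.71, adjusted p = 0.0045), and in M-noTC, at 2.11 (0.50 to 3.71, adjusted p = 0.018). Without GM-TC-LPS replicate 1, the library with the highest stromal sum, the GM-TC value was 0.975 (adjusted p = 0.15), and without GM-TC replicate 2 it was 1.33 (adjusted p = 0.057). The M-noTC value was 1.85 (adjusted p = 0.071) without M-noTC replicate 1 and 1.38 (adjusted p = 0.26) without M-noTC-LPS replicate 2. It was also not called with library size alone (1.4, adjusted p = 0.1) or by DESeq2 on the libraries of the comparison (2.2, adjusted p = 0.11). C4b gave 0.27, -0.067, 0.38 and -0.51 in the 4 cultures, with adjusted p from 0.5 to 0.95. Its interval in M-TC cells, from -0.97 to 1.74, holds changes as large as that of C3 in GM-TC cells. A change of that size can therefore not be excluded at this depth.

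**Figure D3:**
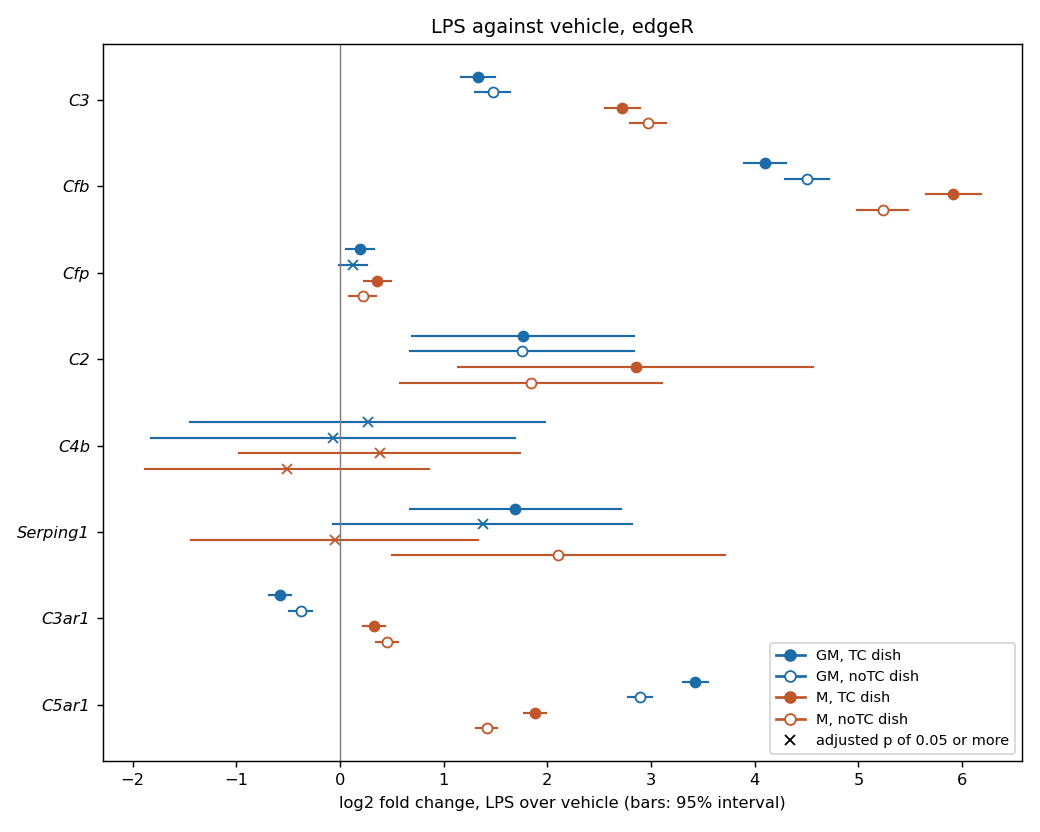
Log2 fold change of each gene upon LPS in 4 cultures, with 95% intervals from edgeR (blue GM, orange M, filled TC, open noTC, crosses for an adjusted p of 0.05 or more). Cfb lies at 4.10 to 5.92 and C5ar1 at 1.42 to 3.43, while C3ar1 is below 0 in GM and above 0 in M cells, the latter turning negative with library size alone; C4b has intervals that span 0.

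The differences between these LPS responses were tested as interactions. Between GM and M cells on TC dishes 4 of 8 genes differed (41.1% of all tested genes), and on noTC dishes 4 (36.2%), in both cases C3, C3ar1, C5ar1 and Cfb. The response of C3 was smaller in GM than in M cells, at -1.39 on TC and -1.5 on noTC dishes on the log2 scale (GM minus M, SE 0.11 in both, adjusted p = 9.4e-10 and 3.6e-10). For C3ar1 the GM minus M difference was -0.91 and -0.83 (SE 0.073 and 0.072, adjusted p = 1.2e-09 and 5e-09), and for C5ar1 it was 1.55 and 1.48 (SE 0.075 and 0.072, adjusted p = 3e-13 and 5.6e-13). For Cfb it was -1.82 and -0.73 (SE 0.18 in both, adjusted p = 4.5e-08 and 0.0023). Cfp gave -0.16 and -0.090 and did not pass (adjusted p = 0.16 and 0.49). Library size alone put the median of all tested genes at 0.3 (TC) and 0.19 (noTC), against -0.041 and -0.02 with TMM. Over the alternatives other than leaving out single libraries, C3 ran from -1.39 to -1.05 on TC and -1.51 to -1.28 on noTC dishes. C3ar1 ran from -0.907 to -0.561 and -0.844 to -0.618, C5ar1 from 1.55 to 1.9 and 1.47 to 1.7. Cfb ran from -1.82 to -1.47 and -0.88 to -0.514.

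The second question was how GM and M cells differed at a given dish and treatment. On TC dishes 6 of 8 genes were called at steady state (61.5% of all tested genes) and 7 after LPS (66.8%), and on noTC dishes 4 at steady state (62.1%) and 5 after LPS (66.1%). C5ar1, C3ar1 and Cfp were lower in GM than in M cells in all 4 settings, and Cfb was higher. C5ar1 was 9.46-fold lower on TC and 8.01-fold lower on noTC dishes at steady state (log2 -3.24 and -3.00, SE 0.058 and 0.055, adjusted p = 1e-21 and 1.6e-21 by edgeR), and 3.23-fold and 2.87-fold lower after LPS (log2 -1.69 and -1.52, SE 0.050 in both, adjusted p = 7.9e-18 and 4.8e-17). C3ar1 was 2.27-fold and 2.11-fold lower at steady state and 4.26-fold and 3.76-fold lower after LPS (log2 -1.18, -1.08, -2.09 and -1.91, SE 0.051 to 0.053). Cfp was 2.06-fold and 1.82-fold lower at steady state and 2.31-fold and 1.94-fold lower after LPS (log2 -1.04, -0.87, -1.21 and -0.95).

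Cfb was 6.11-fold higher in GM than in M cells on TC dishes at steady state (log2 2.61, 95% interval 2.28 to 2.94, adjusted p = 2.9e-12) and 2.83-fold higher on noTC dishes (log2 1.5, 1.18 to 1.83, adjusted p = 2.2e-08). After LPS the excess was 1.74-fold and 1.71-fold (log2 0.80 and 0.77, adjusted p = 8.2e-09 and 1.8e-08). C3 was 2.29-fold and 2.56-fold lower in GM cells after LPS on TC and noTC dishes (log2 -1.2 and -1.35, SE 0.078 in both, adjusted p = 7.4e-12 and 9.6e-13). At steady state its GM minus M difference was 0.20 on TC (adjusted p = 0.034) and 0.15 on noTC dishes (adjusted p = 0.11), with library size alone -0.114 and -0.144. The TC call was lost without GM-TC replicate 1 (0.0575, adjusted p = 0.51), M-TC replicate 1 (0.226, adjusted p = 0.065) or M-TC replicate 2 (0.144, adjusted p = 0.24).

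C2 was called higher in GM cells on TC dishes, by 2.43 at steady state and 1.34 after LPS on the log2 scale (adjusted p = 0.017 and 0.024). As summed counts these were 15 against 3, a ratio of 5.8 (exact interval 1.64 to 31.3), and 47 against 17, a ratio of 2.54 (1.43 to 4.71). The steady state call was lost without GM-TC replicate 2 (2.03, adjusted p = 0.14) or M-TC replicate 1 (2.07, adjusted p = 0.094), and the LPS call without GM-TC-LPS replicate 2 (1.26, adjusted p = 0.089) or M-TC-LPS replicate 2 (0.953, adjusted p = 0.16), and DESeq2 on the libraries of each comparison called neither (adjusted p = 0.2 and 0.13). Serping1 was called higher in GM-TC-LPS than in M-TC-LPS, by 2.34 (95% interval 1.2 to 3.47, adjusted p = 0.00075), and by 1.62 (adjusted p = 0.033) without GM-TC-LPS replicate 1, the library with 52 counts and the highest stromal sum.

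Markers of other myeloid cells moved with the growth factor. The 6 dendritic cell markers summed to 47.5 to 104 CPM in GM libraries, none at 0, and to 0.917 to 4.44 in M libraries, with up to 2 at 0. The 7 neutrophil markers summed to 9.49 to 32.6 CPM in GM libraries, with up to 2 at 0, against 0.187 to 1.59 in M libraries, with 3 to 4 at 0. Of these Ngp, S100a8 and Ltf reached 17.1, 9.85 and 5.54 CPM, while Ly6g, Mpo, Elane and Camp reached at most 0.258, 0.443, 0.37 and 0.947. The 5 markers of mast cells or basophils summed to 20.9 to 35.2 CPM, with up to 1 at 0, against 3.31 to 8.25, with 2 to 3 at 0. That sum came mostly from Kit, which reached 32.2 CPM. Gata2 reached 5.42, and Cpa3, Mcpt8 and Ms4a2 at most 1.72, 0.232 and 0.333. The part of these markers in the differences of complement genes was not tested.

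**Figure D4:**
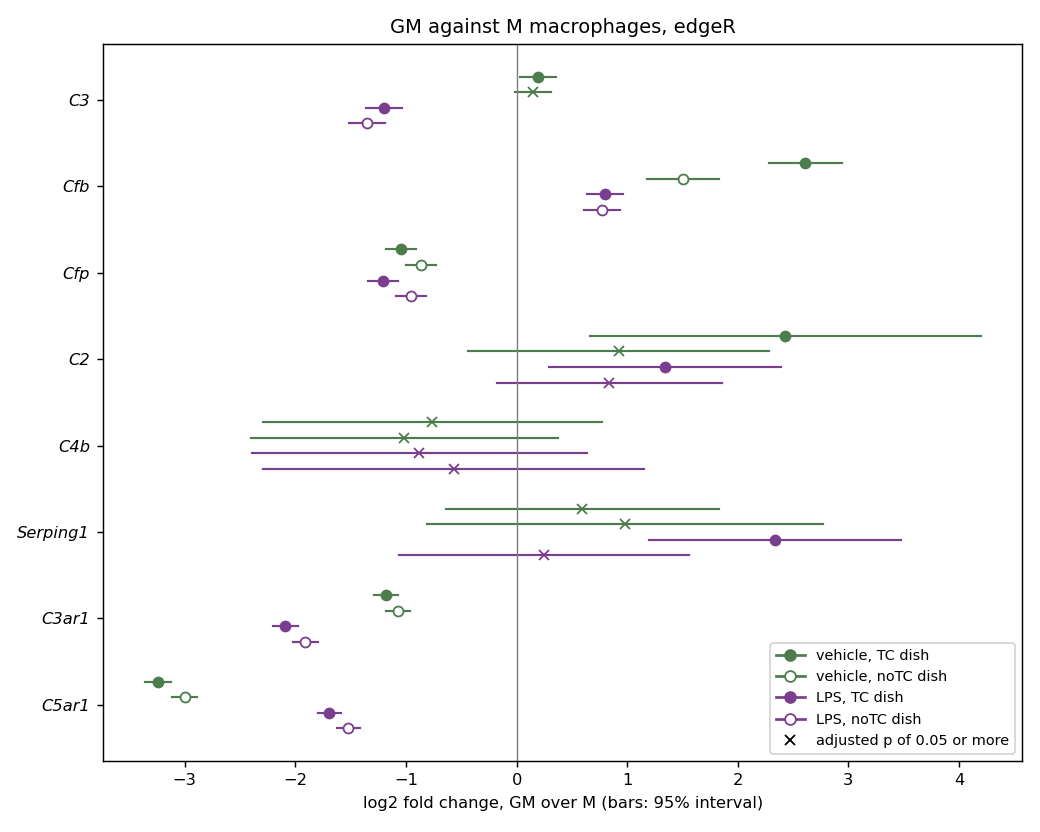
Log2 fold change of each gene between GM and M cells in 4 settings, with 95% intervals from edgeR (green vehicle, purple LPS, filled TC, open noTC, crosses for an adjusted p of 0.05 or more). C5ar1, C3ar1 and Cfp lie below 0 and Cfb above 0 throughout, while C3 moves from 0.15 and 0.20 at steady state, values that turn negative with library size alone, to -1.2 and -1.35 after LPS.

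The third question was whether the dish surface changed complement RNA, and the answer was read against the share of all genes called. At steady state 4 of 8 genes were called between GM-noTC and GM-TC (7.54% of all tested genes) and 2 between M-noTC and M-TC (27.2%). After LPS 3 were called in GM (2.80%) and 1 in M cells (23.3%). The GM-TC replicates stood further apart than those of the other 7 groups, and fitting GM-TC and GM-noTC alone called 329 of all tested genes in place of 944, and 2 of the 8. C5ar1 was higher on noTC dishes at steady state, 1.58-fold in GM (log2 0.66, 95% interval 0.53 to 0.78, adjusted p = 1.4e-07 by edgeR) and 1.33-fold in M cells (log2 0.42, 0.31 to 0.52, adjusted p = 1.2e-06). After LPS its noTC minus TC difference was 0.12 in GM (adjusted p = 0.25) and -0.048 in M cells (adjusted p = 0.53).

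C3 was lower on noTC dishes at steady state, 1.31-fold in GM (log2 -0.39, SE 0.078, adjusted p = 0.0026) and 1.26-fold in M cells (log2 -0.34, SE 0.078, adjusted p = 0.0025). The GM call was lost when the libraries of the comparison were fitted alone (-0.387, adjusted p = 0.068), and the M call without M-noTC replicate 1 (-0.263, adjusted p = 0.063). After LPS C3 gave -0.24 in GM (adjusted p = 0.1) and -0.087 in M cells (adjusted p = 0.46). Cfb was 1.83-fold lower on noTC dishes in GM cells at steady state (log2 -0.87, 95% interval -1.13 to -0.61, adjusted p = 8.1e-05), 1.38-fold lower in GM after LPS (log2 -0.47, adjusted p = 0.00083) and 1.36-fold lower in M cells after LPS (log2 -0.44, adjusted p = 0.00032). In M cells at steady state it gave 0.24 (95% interval -0.18 to 0.66, adjusted p = 0.43), which became -0.14 without M-TC replicate 1 and 0.769 (adjusted p = 0.024) without M-TC replicate 2.

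Cfp was called higher on noTC dishes in GM cells at steady state, by 0.27 (adjusted p = 0.013). The call was lost without GM-TC replicate 1 (0.157, adjusted p = 0.077), GM-noTC replicate 1 (0.269, adjusted p = 0.095) or GM-noTC replicate 2 (0.262, adjusted p = 0.095). C3ar1 was called in GM cells after LPS, at 0.24 (adjusted p = 0.0098), but not without GM-TC-LPS replicate 1 (0.244, adjusted p = 0.11), GM-TC-LPS replicate 2 (0.242, adjusted p = 0.094) or GM-noTC-LPS replicate 2 (0.16, adjusted p = 0.25). Serping1 was called lower in GM-noTC-LPS than in GM-TC-LPS, by -1.89 (adjusted p = 0.044), a call lost without GM-TC-LPS replicate 1 (-1.17, adjusted p = 0.54), GM-noTC-LPS replicate 1 (-2.05, adjusted p = 0.19) or GM-noTC-LPS replicate 2 (-1.74, adjusted p = 0.28), and not called by DESeq2 on all libraries (-1.9, adjusted p = 0.16). Its steady state values were -1.58 in GM and -1.96 in M cells (adjusted p = 0.18 and 0.057). C2 and C4b passed in none of the 4 dish comparisons by edgeR, with unadjusted p above 0.05 in each.

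Besides the heart muscle markers of the TC libraries, 1 other imbalance was measured between the dishes at steady state. It used genes under 1 CPM in the TC libraries and averaging 100 CPM or more over the others. Their noTC minus TC excess had a median of 0.675% of that average in GM (15 genes) and 0.6% in M cells (19 genes). Subtracting this share from the noTC libraries changed the Cfb value in M cells to -0.025 (adjusted p = 0.96) and removed no dish call of a member in GM or M cells at steady state. The shares are medians over genes. Whether this excess was reads of other libraries or low expression on noTC dishes was not tested. The part of the excess or of the heart muscle markers in the dish differences was not tested either.

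**Figure D5:**
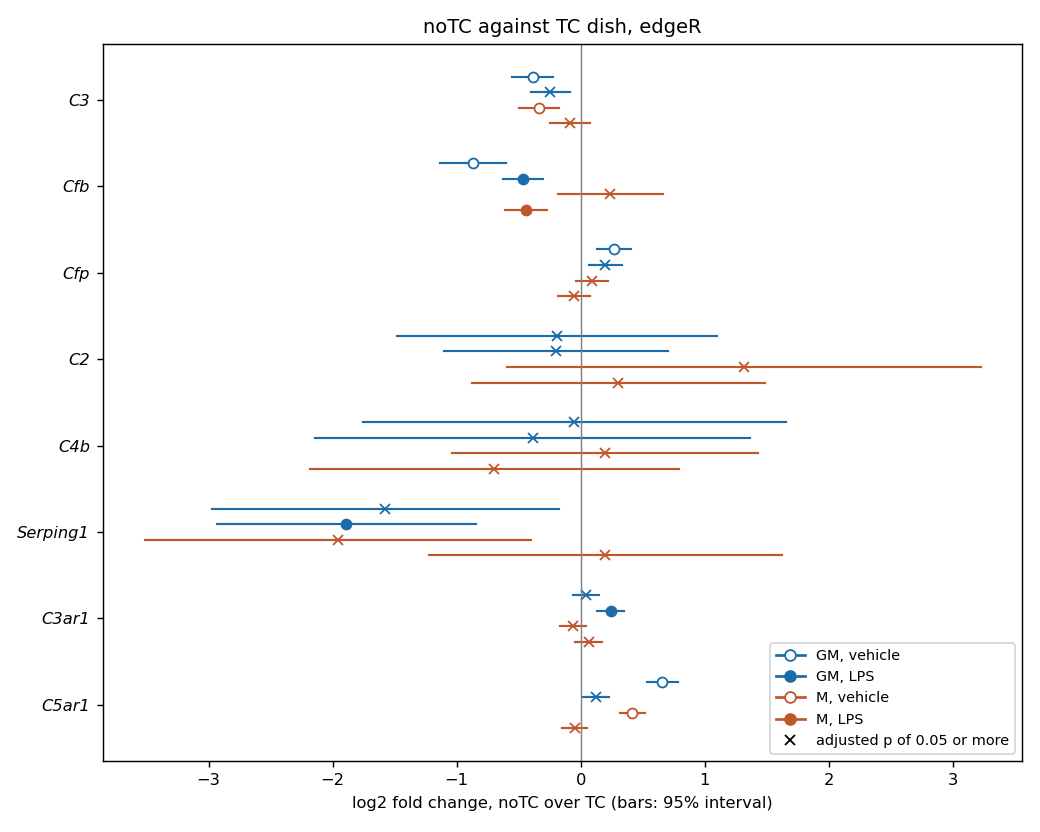
Log2 fold change of each gene between noTC and TC dishes in 4 settings, with 95% intervals from edgeR (blue GM, orange M, open vehicle, filled LPS, crosses for an adjusted p of 0.05 or more). C5ar1 is above 0 and C3 below 0 at steady state in both kinds of macrophage, and the intervals of C2, C4b and Serping1 are wide because these genes have few counts.

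Tests of the dish differences against each other gave few calls. The LPS response differed between dishes for 1 gene in GM (0.783% of all tested genes), C5ar1 at -0.53 (95% interval -0.69 to -0.37, adjusted p = 0.00035), and for 2 in M cells (10.6%), C5ar1 at -0.46 (-0.61 to -0.32, adjusted p = 0.0001) and Cfb at -0.68 (-1.13 to -0.23, adjusted p = 0.047). The C5ar1 response was thus smaller on noTC dishes in both. The dish difference at steady state differed between GM and M cells for 2 genes (11.2%), Cfb at -1.11 (-1.60 to -0.61, adjusted p = 0.0033) and C5ar1 at 0.24 (0.080 to 0.40, adjusted p = 0.048). After LPS it differed for 0 of the 8 genes by edgeR (10.6% of all tested genes), 4 at an unadjusted p under 0.05. By DESeq2 on all libraries it differed for 3 of the 8 genes (1247 of 16756 over all). The Cfb value in M cells and the C5ar1 value of 0.24 lost their calls in 7 of the 8 fits that each left out 1 library.

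The wider complement system was described with a list of 57 genes in 7 roles, of which 56 were in the table and 29 were tested, 21 of them besides the 8. LPS changed 11 of the 21 in GM-TC (7 higher, 4 lower), 11 in GM-noTC (7 and 4), 14 in M-TC (8 and 6) and 13 in M-noTC (9 and 4). Growth factor changed 17, 17, 14 and 16 (TC, TC with LPS, noTC, noTC with LPS), and the dish 3 in GM, 3 in GM with LPS, 10 in M and 10 in M with LPS. Beside the percentages of all genes given above for each comparison, these are 52.4% to 66.7% for LPS, 66.7% to 81% for growth factor and 14.3% to 47.6% for the dish.

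Among recognition proteins, the 3 chains of C1q, which binds antibody on a target and starts the classical pathway, were lower in GM cells. C1qc stood at 97.3 ± 4.37 CPM in GM-TC-LPS and 699 ± 17.9 in M-TC-LPS (SD, n = 2; log2 -2.84, SE 0.076, adjusted p = 1.2e-18), and C1qb at 175 ± 8.36 and 1070 ± 31.1 (log2 -2.60, adjusted p = 1.4e-18). C1qa stood at 160 ± 1.73 CPM in M-TC-LPS and 77.6 ± 0.438 in M-noTC-LPS (log2 -1.04, adjusted p = 6e-09). C1ra, a protease of the same complex, rose in M-TC cells from 4.87 ± 1.12 to 22.2 ± 0.71 CPM upon LPS (log2 2.2, adjusted p = 3.4e-13). It also rose in GM-TC, GM-noTC and M-noTC cells (log2 0.98, 1.04 and 2.08, adjusted p = 1.7e-08, 4.5e-09 and 2e-13 by edgeR). Unlike the C1q chains, C1ra was higher in GM than in M cells, by log2 1.72 on TC and 1.53 on noTC dishes at steady state. After LPS these differences were 0.51 and 0.49. Colec12, a scavenger receptor with a collectin domain, was higher in GM-noTC (99.8 ± 0.814 CPM) than in M-noTC cells (21 ± 0.659).

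Among regulators, Clu, a secreted chaperone that restrains the membrane attack complex, was higher in GM-noTC-LPS (9.55 ± 0.37 CPM) than in M-noTC-LPS cells (0.252 ± 0.138). Susd4 held 1.01 to 2.28 CPM in GM groups at steady state and 0 counts in all 8 M libraries. Of the other membrane regulators, Cd55 rose in M-noTC cells from 0.364 ± 0.153 to 2.03 ± 0.184 CPM upon LPS. Cd46 fell upon LPS in M-TC cells from 1.91 ± 0.114 to 0.879 ± 0.01 CPM. By edgeR, Cd55 was also called in M-TC (adjusted p = 9.2e-05), but not in GM-TC or GM-noTC (adjusted p = 0.065 and 0.23). Cd46 was also called in GM-noTC (adjusted p = 0.029), but not in GM-TC or M-noTC (adjusted p = 0.25 and 0.075). Both genes had low levels.

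Among receptors, C5ar2, the second receptor for C5a, moved against C5ar1 upon LPS in GM-TC cells, from 5.51 ± 0.34 to 0.79 ± 0.198 CPM (log2 -2.80, SE 0.25, adjusted p = 1.7e-09). C5ar2 also fell in GM-noTC, M-TC and M-noTC cells (log2 -2.78, -1.63 and -0.86, adjusted p = 6.7e-10, 7.8e-07 and 0.00015 by edgeR). In M cells with LPS it was higher on noTC (3.77 ± 0.183 CPM) than on TC dishes (1.63 ± 0.00214). Itgax, a chain of complement receptor 4, stood at 916 ± 32.9 CPM in GM-TC and 15.5 ± 1.11 in M-TC cells (log2 5.88, adjusted p = 6.6e-24), and at 47.1 ± 0.0885 in M-noTC. Cd93, first described as a receptor for C1q, fell upon LPS in GM-TC cells from 456 ± 46.3 to 186 ± 6.02 CPM (log2 -1.29, adjusted p = 1.4e-14). It was also called lower in GM-noTC, M-TC and M-noTC cells (log2 -1.14, -0.62 and -0.41).

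Across the 8 group means of log2(CPM + 1), the genes with the pattern most like each of the 8, out of 8838 searched, were Rnf14 and Tyk2 for C3 (Pearson r of 0.9958 and 0.9955), Dnajb6 and Psmb6 for Cfb (0.9981 and 0.9972), Stom and Nbn for C3ar1 (0.9979 and 0.9953) and Oas2 and Oas3 for C5ar1 (0.9941 and 0.994). They were Atp8b4 and Rps6ka5 for Cfp (0.9963 and 0.9944), Mtf2 and Cs for C2 (0.9975 and 0.9955), Bcl7b and Adnp2 for C4b (0.9807 and 0.9489) and Zdhhc4 and Golga5 for Serping1 (0.9018 and 0.9017). Among the 8 genes themselves the closest pairs were C3ar1 with Cfp (r of 0.94), C2 with Cfb (0.905) and C3 with Cfb (0.85). All of these values rest on 8 points from shared libraries and are descriptions of likeness in shape. Those of C2, C4b and Serping1 also rest on 1 to 26, 2 to 25 and 2 to 52 counts per library. Counting error is thus part of their shape, and C4b was called in none of the comparisons.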

How the data were processed

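Per the labels and methods of the study, fastp 0.18.0, Bowtie2 2.2.8, HISAT2, StringTie 1.3.1 and RSEM processed the reads, with HISAT2 as aligner and RSEM for abundance. The authors deposited RSEM expected counts per gene (6.56% to 8.19% of values per library were not whole). Genome build and annotation are not given in the sources used here. Expected counts were rounded to whole numbers, and edgeR 4.0.16 (R 4.3.3) fitted its quasi-likelihood model to the 16 libraries in 8 groups with TMM factors after filterByExpr by group. Genes were called at a Benjamini-Hochberg adjusted p under 0.05 over 12514 tested genes, in 12 comparisons and 6 interactions. The study used DESeq2, and DESeq2 1.42.0 was an alternative here. Further alternatives were DESeq2 size factors, library size, no filter, fewer libraries, a replicate block and the threshold of the study (2-fold, unadjusted p). Others left out single libraries or subtracted the noTC excess share described above. With 2 libraries a group, an exact permutation test could not go below a two-sided p of 0.333.

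The common dispersion was 0.00226 (biological coefficient of variation 4.75%). Replicates of a group differed by more than counting noise (chi-square per gene 12.9 in GM-TC and 1.92 to 5.27 in the other 7 groups), so each counted as 1 sample. Exon lengths came from GENCODE M21, and promoters from RefSeq on GRCm38.p6. The 8 genes, the wider list and the marker lists were chosen with earlier results of these data known. Genes named from the wider list are up to 3 per role and factor with the largest called log2 change above 1 and a group mean of 1 CPM or more, and those of like pattern are the 2 highest correlations per gene among tested genes reaching a group mean of 10 CPM. The fit was tested on simulated data.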

Additional observations from a re-analysis of the deposited data

Results flagged for a closer look

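The tests of differences between effects marked 13 values of the 8 genes, all on the log2 scale and by edgeR. Between GM and M cells the LPS response differed on TC dishes for C3 (-1.39), C3ar1 (-0.907), C5ar1 (1.55) and Cfb (-1.82), and on noTC dishes for C3 (-1.5), C3ar1 (-0.835), C5ar1 (1.48) and Cfb (-0.729). C3ar1 moved in opposite directions in GM and M cells with TMM, and downward in both with library size alone. Between noTC and TC dishes the LPS response differed for C5ar1 in GM (-0.534) and in M cells (-0.464), and for Cfb in M cells (-0.682). At steady state the dish difference differed between GM and M cells for Cfb (-1.11) and C5ar1 (0.24). The Cfb value of -0.682 rests on M-TC libraries with 40 and 80 counts and became -0.298 (adjusted p = 0.46) without M-TC replicate 1. It was -0.416 (adjusted p = 0.29) after the noTC excess share was subtracted, and the C5ar1 value of 0.24 was then 0.15 (adjusted p = 0.26).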

How the results depend on the processing

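Over the alternatives, 999 of the gene values in the comparisons kept direction and side of the threshold, 100 lost and 15 gained a call, and 13 reversed. Library size alone reversed Cfp upon LPS (-0.285, -0.381, -0.468, -0.508), C3ar1 upon LPS in M cells (-0.501, -0.271), C3 between growth factors at steady state (-0.114, -0.144), and C5ar1 (0.0392) and Cfp (0.0358) between dishes in M-LPS. Subtraction of the noTC excess share turned Cfb between dishes in M cells to -0.025. Leaving out 1 library at a time gave -0.14 to 0.769 for that value and -0.115 to 0.00846 for Cfp between dishes in M-LPS. The causes were not tested.

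The count of the 8 genes called moved by over 1.5 times as follows. The threshold of the study called 1.16% to 36.1% of all tested genes over the 12 comparisons. Under it the count was 1 for the dish in GM (2.73%), GM-LPS (1.16%) and M (4.32%). It was 0 in M-LPS (2.83%) and 3 for growth factor in noTC-LPS (25%). For the interactions the share of all tested genes under this threshold was not computed. There the count was 0 and 1 for dish by LPS in GM and M, and 2 for growth factor by LPS on noTC. It was 1 for dish by growth factor at steady state and after LPS. Of the 21 other complement genes this threshold called 2, 5, 6 and 3 upon LPS (GM-TC, GM-noTC, M-TC, M-noTC). For the dish it called 1, 1, 2 and 3 of them (GM, GM-LPS, M, M-LPS). With the libraries of the comparison alone the count was 2 for the dish in GM (329 of 11801 genes over all) and 5 in GM-LPS (529 of 11628). It was 4 for dish by LPS in M (1685 of 11835) and 1 for dish by growth factor at steady state (1163 of 12142). With no filter the count was 5 for the dish in GM-LPS (557 of 16756). It was 1 for dish by growth factor at steady state (1600 of 16756) and after LPS (1524 of 16756). Library size gave 2 for the dish in M-LPS (2982 of 12514). DESeq2 size factors gave 1 for dish by LPS in M (1300 of 12514) and 1 for dish by growth factor after LPS (1428 of 12514). Subtraction of the noTC excess share gave 1 for dish by LPS in M (1249 of 12514) and 1 for dish by growth factor at steady state (1331 of 12514). DESeq2 on all libraries gave 3 for dish by growth factor after LPS (1247 of 16756). On the libraries of the comparison DESeq2 gave 1 for dish by growth factor at steady state (824 of 16022) and 1 after LPS (1132 of 15803). There it also called 7 of the 21 other genes upon LPS in GM-TC (6133 of 15501). Without 1 library the count ran from 1 to 2 for the dish in GM-LPS, 1 to 4 in M, 1 to 2 for dish by LPS in M, 1 to 2 for dish by growth factor at steady state and 0 to 1 after LPS.

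Same-numbered replicates did not deviate together (correlations of -0.069 to 0.062 over 12 comparisons), so no sign of pairing was seen. Such correlations cannot show that the libraries share no origin. The replicate block left 1 of the 8 genes called for dish by growth factor at steady state (1388 of 12514 over all). C5ar1 then had 0.24 (adjusted p = 0.053 by edgeR), and no other call of the 8 genes changed. Of the 21 other complement genes the block called 10 upon LPS in GM-noTC (8436 of 12514 over all). It called 9 for the dish in M (3366 of 12514) and 16 for growth factor in TC (7677 of 12514), 1 fewer in each. Adding C4a to C4b was not run. Counts of 1 to 52 per library limit C2, C4b and Serping1, and 2 libraries a group limit every test.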

Other observations

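Several proteins that C3, Cfb and C5ar1 work with had almost no RNA in these cultures. Cfd, the protease that activates factor B, reached a group mean of at most 0.0761 CPM, and Hc, which encodes C5, the source of the C5ar1 ligand, at most 0.0456 CPM. Of the later components, C6, C8b and C9 had 0 counts in every group mean, C7 reached at most 0.0403 CPM and C8a 0.115, while C8g reached 0.872 CPM and passed the filter. The inhibitors Cfi and C4bp were likewise at 0, which allows up to 3 counts, or 0.0697 to 0.174 scaled CPM, in a library. The surface receptor Vsig4 reached at most 0.0939 CPM, while Itgam and Itgb2, the chains of complement receptor 3, reached 2570 and 2410 CPM.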
